A study of Mus musculus with 2 samples.

Results

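The lymphocyte lineage transcription factors described here are Tbx21, Eomes, Runx3, Gata3, Id2, Id3, Bcl11b, Ikzf2, Zbtb16 and Zeb2, chosen by name as factors that mark or set lymphocyte identity. Of these 10 genes, 9 had a row among the 19294 gene symbols of the deposited matrix, and Zbtb16 was not analysed here. Their levels were described across 4 clusters and 3 epithelial subclusters to which the authors assigned the cells.

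The study profiled sorted crypt cells of the mouse colon by Drop-seq, in which each cell is lysed in a droplet with a barcoded bead and each unique molecular identifier (UMI) counts 1 captured transcript. According to the labels there were 2 pools, 1 made from samples 1 to 3 and the other from samples 4 to 6, and both hold Tcf4 Lin- and Tcf4 DP cells, the latter called MIX by the study, under the same condition. All animals were Tcf4GfpCre/+ RosamTmG/+ mice on a C57BL/6 background and between 4 and 10 months old. Cre was expressed from the Tcf4 locus, here the Wnt pathway gene listed as Tcf7l2 in the matrix and not the gene listed there as Tcf4, so that all animals carried 1 targeted allele and the Cre reporter, and no wild-type cells were analysed here. Human cells were added to the suspensions before droplets were made.

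Barcodes ended in X1 or X2, no barcode occurred in both sets, and no source ties a set to a pool or sorted population, so all cells were 1 sample and no p-value was computed. The clusters were made from these same counts, so differences between them are descriptions. Of 1117 barcodes, 516 had a cluster: 190 natural intraepithelial lymphocytes (nIELs), 186 induced intraepithelial lymphocytes (iIELs), 47 B cells and 93 epithelial cells, with median depths of 1145.5, 965.5, 1503 and 1645 UMIs. A UMI of at least 1 of 5 T cell genes (Cd3d, Cd3e, Cd3g, Cd247, Lat) was present in 90.0% of nIELs, 88.7% of iIELs, 25.5% of B cells and 2.15% of epithelial cells, and a UMI of 6 natural killer and ILC1 genes in 83.7%, 37.1%, 44.7% and 3.23%. The 5 epithelial marker genes stood at 6969 UMIs per 1000000 UMIs (CPM, the unit of every level) in iIELs and at 264 in nIELs, against 20572 in epithelial cells. A second table divides epithelial cells into 32 stem cells, 32 secretory precursors and 42 absorptive precursors, and 14 of these cells are IELs in the first table. Of the 14, 11 were listed as iIELs, held 98969 UMIs and made up 34.8% of the UMIs of that cluster, while the other 3 held 1.13% of the UMIs of nIELs. The comparisons of IELs are therefore given with and without these cells, and the divisions within IELs without them, which leaves 187 nIELs and 175 iIELs.

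Intraepithelial lymphocytes lie between the epithelial cells of the gut. Induced IELs descend from conventional T cells that were activated in the periphery, whereas natural IELs acquire their program during selection of self-reactive precursors in the thymus and often carry natural killer cell receptors. T-bet (Tbx21), Eomes and Runx3 direct cytotoxic programs, Gata3 and Bcl11b secure T cell identity, Id2 and Id3 hold E proteins away from DNA, and Helios (Ikzf2) is an Ikaros family factor associated with self-reactive T cells.

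Both inhibitors of E proteins, Id2 and Id3, differed between the IEL clusters and in opposite directions, and their proximal promoters are shown for that reason. E proteins bind the E-box CANNTG. The sequences are the 250 bases before the transcription start in RefSeq, on the strand of the gene in build GRCm38.p6, with any E-box in capitals. The Id3 promoter lies at chr4:136143572-136143821 on the plus strand and the Id2 promoter at chr12:25096093-25096342 on the minus strand. Both windows lie inside the bounds that GENCODE gives these genes, which begin farther upstream.
Id3: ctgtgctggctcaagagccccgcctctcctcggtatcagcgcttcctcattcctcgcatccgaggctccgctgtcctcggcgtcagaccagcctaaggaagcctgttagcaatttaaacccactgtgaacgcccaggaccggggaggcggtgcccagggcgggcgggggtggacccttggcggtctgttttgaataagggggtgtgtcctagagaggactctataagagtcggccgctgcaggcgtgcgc
Id2: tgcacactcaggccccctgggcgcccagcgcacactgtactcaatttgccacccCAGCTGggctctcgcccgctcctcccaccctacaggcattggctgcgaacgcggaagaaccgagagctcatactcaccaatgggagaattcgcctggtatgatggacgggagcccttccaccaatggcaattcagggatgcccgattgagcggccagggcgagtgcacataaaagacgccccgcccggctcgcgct
The Id2 window held 1 E-box, of the form CAGCTG and starting at base -196, and these letters did not occur in the Id3 window. Of all 32851 RefSeq promoter windows of 300 bases, 72.3% held CANNTG and 16.3% held CAGCTG, read on both strands, and every CAGCTG is also a CANNTG. RefSeq promoter entries were found for 8 of the 10 factors, all but Ikzf2 and Zbtb16. E-boxes were not particular to Id2: CANNTG also occurred in promoters of Gata3 (base -1), Tbx21 (bases -196 and 37) and Runx3 (bases -233 and 2, in separate promoters), as CAGCTG in Gata3 and at base 37 in Tbx21. The Runt letters TGTGGT (16.8% of all windows) occurred at bases -134 and -126 of a Runx3 promoter, and the T-box letters TCACAC (14.5%) at base -79 of a Bcl11b promoter.

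At least 1 UMI of the 9 factors was present in 72.6% of nIELs (95% interval 65.7 to 78.8), 76.3% of iIELs (69.6 to 82.3), 34.0% of B cells (20.9 to 49.3) and 23.7% of epithelial cells (15.5 to 33.6). Together the factors stood at 1512 CPM in nIELs, 1218 in iIELs, 521 in B cells and 157 in epithelial cells. Without the cells listed in both tables the levels in nIELs and iIELs were 1529 and 1771 CPM, and the shares were 73.8% (66.9 to 79.9) and 77.7% (70.8 to 83.6). The most UMIs in the IELs came from Id2, Ikzf2 and Runx3, with 241, 143 and 125, and the fewest from Eomes, with 7.

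**Figure D1:**
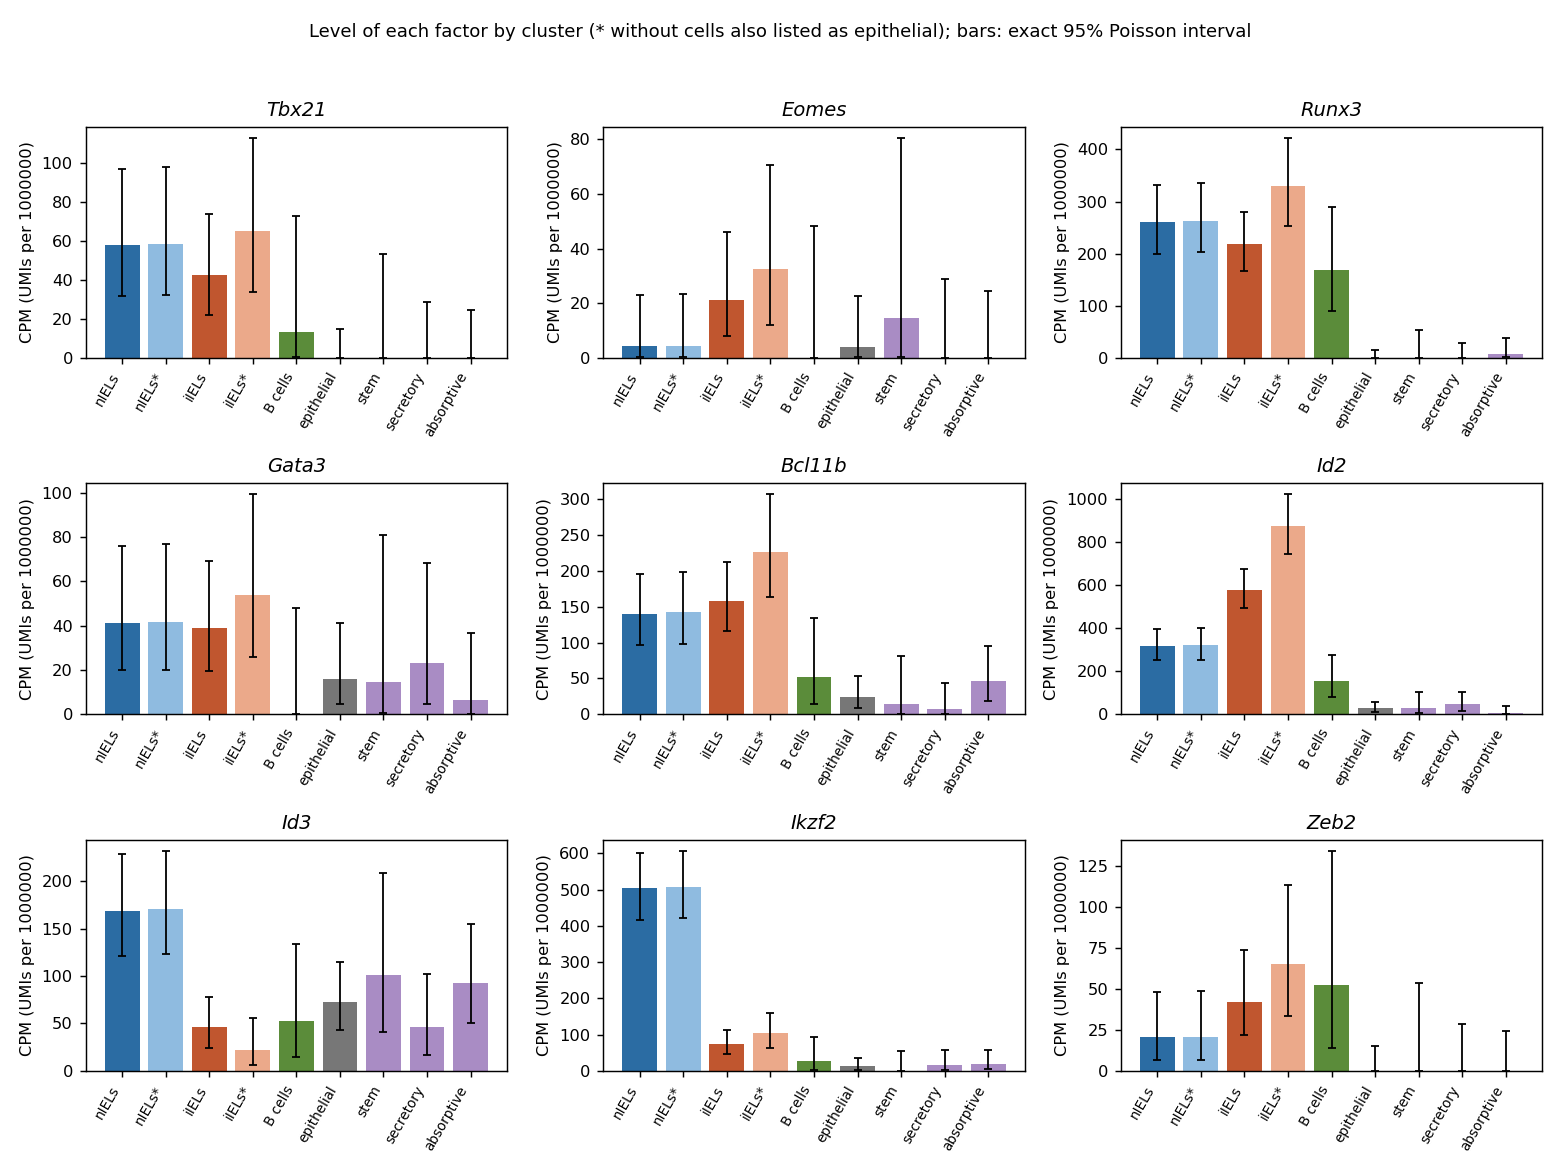
Level of each of the 9 factors (vertical axis, CPM) in the 4 clusters, in nIELs and iIELs without the cells also listed as epithelial (asterisks), and in the 3 epithelial subclusters; bars are summed UMIs and lines exact 95% Poisson intervals for counting error. Ikzf2 stood at 503 CPM in nIELs, or at 508 without the cells listed in both tables. In every group other than nIELs it stood at no more than 103. Id2 was highest in iIELs at 577, or at 875 without the cells listed in both tables.

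The comparison of natural with induced IELs asks which lineage factors separate the lymphocyte clusters. Helios and Id3 were higher in nIELs and Id2 was higher in iIELs, whereas the intervals of Runx3, Bcl11b, Gata3 and Tbx21 overlapped 1. A gene was called past 2-fold when its level differed by at least 2 times and it held at least 20 UMIs in both groups together. By this rule, 2 of the 7 factors with enough UMIs were higher in nIELs (Id3 and Ikzf2), beside 6.97% of 4189 genes, and 0 were higher in iIELs, beside 13.2% of genes. The median fold of nIELs over iIELs was 1.19 for these 7 factors and 0.990 for all 4189 genes. Without the cells in both tables, 2 factors were again higher in nIELs (Id3 and Ikzf2), beside 5.72% of 3321 genes, 1 was higher in iIELs (Id2), beside 6.20%, and the medians were 0.797 and 1.00. Eomes and Zeb2 held fewer than 20 UMIs in both clusters together.

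Ikzf2 (chr1:69531214-69687245, minus strand, GRCm38) encodes Helios. Its UMIs numbered 122 in 75 of 190 nIELs, 21 in 16 of 186 iIELs, 2 in 2 of 47 B cells and 3 in 2 of 93 epithelial cells. The nIELs stood apart from the other 3 clusters, whose levels were lower throughout. The level was 503 CPM in nIELs (417 to 600), 73.9 in iIELs (45.8 to 113), 26.1 in B cells (3.16 to 94.2) and 12.1 in epithelial cells (2.49 to 35.3). nIELs were above iIELs by 6.80-fold (4.26 to 11.4). Without the cells in both tables, the levels were 508 and 103 CPM and the fold was 4.95 (3.04 to 8.51). Up to 5 UMIs were found in 1 cell, and 30 nIELs against 4 iIELs held at least 2. After each cell was thinned to 700 UMIs, 27.6% of nIELs and 6.54% of iIELs held a UMI, compared with 39.5% and 8.60% at full depth. Thinned epithelial cells, which serve as a background for free RNA, held one in 0.950%. The 6 natural killer and ILC1 genes went the same way as Ikzf2, at 3143 CPM in nIELs against 662 in iIELs. Klrd1, Fcer1g and Tyrobp among them are markers the study used for nIELs, so they are not independent of the cluster's name. A UMI of 4 mast cell genes was present in 19 nIELs against 2 iIELs. Beyond the division by Fcer1g and Tyrobp given below, the part of the cells with these genes in the level of Ikzf2 was not tested.

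Id3 (chr4:136143497-136145755, plus strand) encodes an inhibitor that pairs with E proteins and that T cell receptor signals induce. It had 41 UMIs in 25 nIELs, 13 UMIs in 7 iIELs, 4 UMIs in 4 B cells and 18 UMIs in 12 epithelial cells. Levels were 169 CPM (121 to 229), 45.8 (24.4 to 78.2), 52.1 (14.2 to 134) and 72.5 (43.0 to 115). The nIELs were highest, with an interval apart from those of iIELs and epithelial cells but not from that of B cells. The nIELs exceeded the iIELs by 3.69-fold (1.94 to 7.51). Of the 13 UMIs in iIELs, 9 lay in 3 cells that the second table lists as epithelial. Outside these cells, 41 UMIs in 25 of 187 nIELs stood against 4 UMIs in 4 of 175 iIELs, a 7.91-fold difference (2.86 to 30.4). Unlike Ikzf2, Id3 was found in epithelial cells about as often as in nIELs: 12.9% of 93 epithelial cells (6.85 to 21.5, median depth 1645) and 13.2% of 190 nIELs (8.70 to 18.8) held a UMI. After thinning to 700 UMIs these shares were 5.45% and 9.73%.

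Id2 (chr12:25093799-25097140, minus strand) encodes the second E protein inhibitor, which is required for innate lymphocytes and for effector CD8 T cells. It held 77 UMIs in 45 nIELs, 164 UMIs in 88 iIELs, 12 UMIs in 5 B cells and 7 UMIs in 5 epithelial cells. The order was iIELs at 577 CPM (492 to 673), nIELs at 317 (250 to 396), B cells at 156 (80.8 to 273) and epithelial cells at 28.2 (11.3 to 58.1). The intervals of nIELs and B cells overlapped, and the iIELs and the epithelial cells lay outside those of the other clusters. The iIELs were 1.82-fold above nIELs (1.38 to 2.42). Of the 77 UMIs in nIELs, 18 lay in cells without a Cd3d, Cd3e or Cd3g UMI, as did 6 of the 164 in iIELs. Without the cells in both tables, 162 UMIs in 86 of 175 iIELs stood against 77 UMIs in 45 of 187 nIELs, and the iIELs were 2.73-fold higher (2.07 to 3.63). In cells thinned to 700 UMIs, 39.5% of iIELs, 15.8% of nIELs and 0.963% of epithelial cells held a UMI. Id2 was thus past 2-fold without the 14 cells listed in both tables and not with them.

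**Figure D2:**
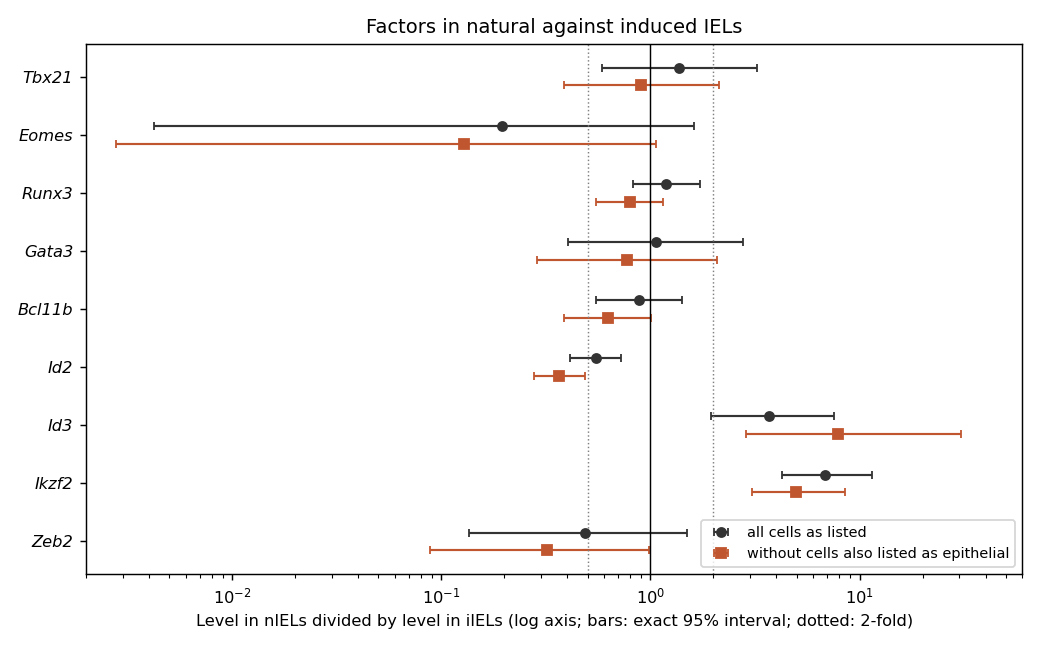
Level in nIELs divided by level in iIELs for each factor (horizontal axis, log scale) over all cells as listed (circles) and without the cells also listed as epithelial (squares); lines are exact 95% intervals for counting error and dotted lines mark 2-fold. Id3 and Ikzf2 lay above 2-fold both ways at 3.69 and 6.80 or at 7.91 and 4.95, Id2 lay below 1 both ways, and Tbx21, Runx3 and Gata3 moved across 1.

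Runx3, Tbx21 and Eomes belong to the cytotoxic program. Runx3 (chr4:135120652-135177990, plus strand), which represses Cd4 and sustains CD8 T cells, had 63 UMIs in 46 nIELs, 62 UMIs in 49 iIELs, 13 UMIs in 11 B cells and 0 UMIs in epithelial cells. Its levels were 260 CPM in nIELs (199 to 332), 218 in iIELs (167 to 280) and 169 in B cells (90.2 to 290), and the 3 intervals overlapped. The nIELs stood at 1.19 times the iIELs (0.824 to 1.72), and at 0.797 times without the cells in both tables (0.551 to 1.15), so the direction depended on 14 cells. Tbx21 (chr11:97098071-97115331, minus strand) had 14 UMIs in 13 nIELs, 12 UMIs in 12 iIELs, 1 UMI in B cells and 0 in epithelial cells. Its ratio of nIELs to iIELs was 1.37 (0.586 to 3.23), or 0.900 (0.386 to 2.13) without the cells in both tables. Eomes (chr9:118478212-118486132, plus strand) had 1 UMI in nIELs, 6 UMIs in 5 iIELs, 0 in B cells and 1 in epithelial cells, which is too few to order the clusters.

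Gata3 and Bcl11b are needed to specify and keep the T cell fate. Bcl11b (chr12:107910403-108003602, minus strand) had 34 UMIs in 22 nIELs, 45 UMIs in 33 iIELs, 4 UMIs in 2 B cells and 6 UMIs in 5 epithelial cells. Over all listed cells, its level was 140 CPM in nIELs (97.0 to 196) and 158 in iIELs (116 to 212). Without the cells in both tables, the levels were 142 and 227 CPM. The ratio of nIELs to iIELs was 0.884 (0.549 to 1.41), and 0.624 (0.385 to 1.01) without the cells in both tables. Gata3 (chr2:9857078-9890034, minus strand) had 10 UMIs in 9 nIELs, 11 UMIs in 11 iIELs, 0 in B cells and 4 UMIs in 3 epithelial cells. Its ratio was 1.06 (0.405 to 2.76), and 0.771 (0.288 to 2.07) without those cells. The interval of Gata3 spans more than 2-fold both ways, so a 2-fold difference was not detectable at this depth.

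Zeb2 (chr2:44983632-45117395, minus strand), a repressor that acts with T-bet in terminal effector cells, had 5 UMIs in 4 nIELs, 12 UMIs in 10 iIELs, 4 UMIs in 3 B cells and 0 in epithelial cells. Its ratio of nIELs to iIELs was 0.488 (0.135 to 1.49), and 0.321 (0.0887 to 0.980) without the cells in both tables. All 10 iIELs with a Zeb2 UMI also held a UMI of Cd3d, Cd3e or Cd3g, compared with 2 of 4 nIELs. Among cells without Zeb2, 151 of 176 iIELs and 167 of 186 nIELs held such a UMI, and 4 nIELs are too few for a contrast. Other annotated genes overlap Eomes, Runx3, Gata3, Ikzf2 and Zeb2, and how the counting used strand is not given in the sources used here.

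**Figure D3:**
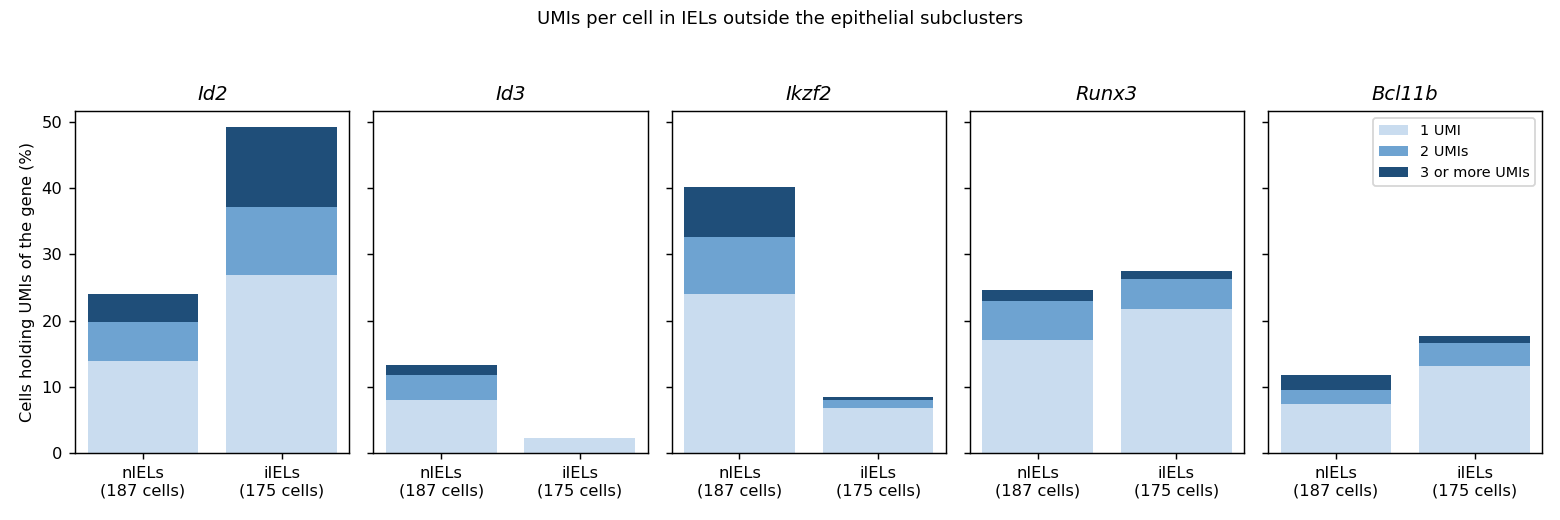
Share of cells (vertical axis, percent) holding 1, 2, or 3 or more UMIs of Id2, Id3, Ikzf2, Runx3 and Bcl11b among 187 nIELs and 175 iIELs without the cells also listed as epithelial. Id2 was held by 49.1% of iIELs and 24.1% of nIELs and Ikzf2 by 8.57% and 40.1%, while Runx3 reached 27.4% and 24.6%.

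Other factors of lymphocytes, a list of 40 genes of which 38 had a row, were compared in the same way. Of the 17 with enough UMIs, 2 were past 2-fold in nIELs and 0 in iIELs, beside 6.97% and 13.2% of all genes. Lef1 and Tcf7, the Wnt-responsive factors of early and memory T cells, were higher in nIELs by 4.01-fold (1.68 to 11.0) and 2.40-fold (1.39 to 4.25), and Fli1 stood at 1.98-fold. At the other end, Rora, Maf and Runx1 stood at 1.85-, 1.64- and 1.59-fold in iIELs. Without the cells in both tables, Lef1 was 2.64-fold higher in nIELs, and Rora and Maf were 2.30- and 2.19-fold higher in iIELs. The other 10 of 13 genes were not past 2-fold, Tcf7 among them at 1.75-fold. Of all genes, 5.72% were then past it in nIELs and 6.20% in iIELs.

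Of 19 known targets of the factors, 18 had a row and 12 had enough UMIs. Xcl1, a chemokine gene, was higher in nIELs at 836 against 134 CPM, a fold of 6.25 (4.40 to 9.09). It was the only target past 2-fold in nIELs, beside 6.97% of all genes. In iIELs 4 targets were higher, beside 13.2% of all genes. These were Cd8b1, Gzmb, Fasl and Gzma, and the first 3 differed by 16.8-fold (8.30 to 39.5), 3.87-fold (3.07 to 4.94) and 2.85-fold (1.10 to 8.67). Without the cells in both tables, 7 of the 12 targets were past 2-fold in iIELs, beside 6.20% of all genes. Cd8b1, Gzma, Gzmb and Cd8a, the last past 2-fold only without those cells, are among the markers the study used for iIELs. They are therefore not independent of the clusters' names.

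Levels were next compared within clusters, between cells with and without a UMI of Cd8b1, which encodes the beta chain of CD8 carried by conventional CD8 T cells. Among the 175 iIELs outside the subclusters, 85 held such a UMI and 90 did not, at median depths of 964 and 931.5 UMIs. Id2 had 105 UMIs in cells with Cd8b1 and 57 in cells without, that is 1171 (958 to 1418) against 597 CPM (452 to 773), a fold of 1.96 (1.41 to 2.76). Ikzf2 ran the other way within the same cluster, with 4 UMIs against 15, or 44.6 (12.2 to 114) against 157 CPM (87.9 to 259), a ratio of 0.284 (0.0686 to 0.892). Among nIELs, 7 of 187 cells held a Cd8b1 UMI, and there the ratio of Ikzf2 was 1.40 (0.626 to 2.76) and that of Id2 1.49 (0.529 to 3.41). Within iIELs, Runx3 stood at 279 and 377 CPM and Bcl11b at 223 and 230, with overlapping intervals. Detection of Cd8b1 in a cell also depends on the cell's depth, and a cell without a UMI is not shown to lack the transcript.

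**Figure D4:**
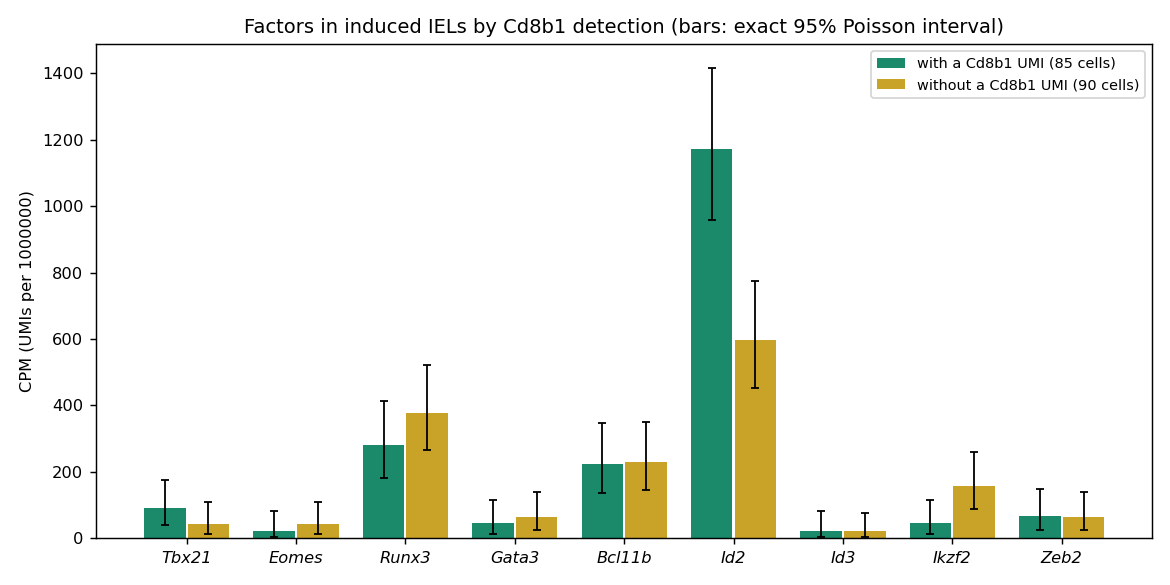
Level of the 9 factors (vertical axis, CPM) in iIELs outside the epithelial subclusters, in 85 cells with and 90 cells without a Cd8b1 UMI; lines are exact 95% Poisson intervals for counting error. Id2 stood at 1171 against 597 and Ikzf2 at 44.6 against 157, and the intervals of the ratio included 1 for the other 7 factors.

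Fcer1g and Tyrobp encode adaptors of natural killer cell receptors, and a UMI of either was found in 124 of 187 nIELs and in 32 of 175 iIELs. Both are among the markers the study used for nIELs, so this difference between clusters is not independent of their names. Within nIELs, the level of Ikzf2 was 524 CPM in cells with and 470 in cells without either UMI, a ratio of 1.12 (0.741 to 1.72). Within iIELs it was 200 against 80.0 CPM on 7 and 12 UMIs, a ratio of 2.50 (0.833 to 6.88). Over both clusters, where cells with an adaptor UMI are mostly nIELs, the ratio was 2.29 (1.59 to 3.35). Within iIELs, Runx3 was higher in the cells with an adaptor UMI by 1.94-fold (1.06 to 3.40), and Id2 was lower at a ratio of 0.469 (0.261 to 0.788). IELs were also divided by Cd3, Ikzf2 and Id2 UMIs, and only some values of these divisions are given. Within nIELs, Id2 stood at 980 CPM in 18 cells without a Cd3d, Cd3e or Cd3g UMI and at 266 in 169 cells with one. The ratio of cells with to cells without was 0.272 (0.158 to 0.489). Within iIELs it was 2.72 (1.04 to 10.1), with 4 UMIs in the cells without. Cells with a UMI of the granzymes Gzma or Gzmb numbered 150 of 362 IELs. Zeb2 stood at 69.9 CPM in them against 19.7 in the other IELs, a fold of 3.54 (1.16 to 12.8) that rested on 12 and 5 UMIs. Of the 150 cells, 116 were iIELs, and within each cluster the interval included 1, at 2.93-fold in nIELs (0.245 to 25.6) and 2.27-fold in iIELs (0.484 to 21.3).

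In the 362 IELs outside the subclusters, 90 cells held Ikzf2, 29 held Id3 and 17 held both, where independent detection would give 7.21 cells. Id2 and Id3, the paired inhibitors, were found together in 5 cells against 10.5 under independence. Id2 and Ikzf2 shared 25 cells against 32.6, Runx3 and Id2 34 against 34.0, and Runx3 and Bcl11b 20 against 13.8. These counts mix both clusters and cells of different depth. Of the 90 cells with Ikzf2, 88 also held a Cd3d, Cd3e or Cd3g UMI, as did 241 of the 272 cells without it, and 28 of 29 cells with Id3 did.

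The comparison of both IEL clusters together with B cells asks which factors set T lineage cells apart from other lymphocytes. Here 4 of 8 factors were past 2-fold in IELs (Tbx21, Id2, Bcl11b and Ikzf2), beside 18.4% of 4658 genes, and 0 in B cells, beside 7.64%. The median fold was 2.42 for the factors and 1.13 for all genes, with a cluster at 0 UMIs taken as 3 UMIs. Ikzf2 was 10.4-fold higher in IELs (2.83 to 86.8) and Id2 2.92-fold (1.64 to 5.74). Bcl11b was 2.88-fold higher (1.08 to 10.8), and the 3.79-fold of Tbx21 (0.622 to 155) rested on 1 UMI in B cells. Runx3 stood at 1.40-fold (0.789 to 2.70), Id3 at 1.97-fold (0.725 to 7.47) and Zeb2 at 0.619-fold (0.202 to 2.53). Gata3 had 21 UMIs in IELs and 0 in B cells, a fold of 1.02 against the floor of 3 UMIs. Its exact lower limit was 0.758, so a fold below 1 was not excluded at this depth. When the cells in both tables were left out, 5 of 8 factors were past 2-fold in IELs, beside 17.0% of 3844 genes, and 0 in B cells, beside 7.00%. The added factor was Id3, at 2.03-fold with an interval of 0.740 to 7.77, and Runx3 stood at 1.72-fold (0.970 to 3.32). As the mean of each cell's own level over all listed cells, Id3 and Runx3 were also past 2-fold, at 2.01 and 2.30. This made 6 of 8 factors, beside 21.9% of 4658 genes by the same measure, compared with 18.4% by summed UMIs.

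Some cells of the B cell cluster held transcripts of T cells. Of its 47 cells, 11 held a UMI of Cd3d, Cd3e or Cd3g. Runx3 was found in 11 B cells, of which 5 held such a UMI, and 6 of its 13 UMIs lay in these 5 cells. Of the 5 B cells with Id2, 3 held a Cd3 UMI, and 6 of its 12 UMIs lay in these 3 cells. Both B cells with Bcl11b held a Cd3 UMI, as did 1 of 2 with Ikzf2 and 1 of 4 with Id3. None of the 3 with Zeb2 did. The part of these cells in the level of each factor was not tested beyond leaving them out, which took Zeb2 past 2-fold in B cells. Of the 38 other factors with a row, 22 had enough UMIs, and 4 were past 2-fold in IELs and 5 in B cells. Of all genes, 18.4% were past it in IELs and 7.64% in B cells, so the count in IELs lay near the share of all genes. Hopx was 3.15-fold higher in IELs (1.03 to 15.7), and the 5.53-fold of Maf (0.935 to 224) rested on 1 UMI in B cells. Tcf7, at 0 UMIs in B cells, was at least 3.11-fold higher against the floor, with an exact lower limit of 2.45, while Pax5, Irf8 and Ebf1, which B cells require or express, were 59.5-, 9.16- and 6.87-fold higher in B cells. Of the targets, 13 had enough UMIs, and 2 were past 2-fold in IELs (Nkg7 and Itgae) and 1 in B cells (S1pr1). Both counts stand beside the same 18.4% and 7.64% of all genes.

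Against the 93 epithelial cells, 6 of 7 factors were past 2-fold in IELs, beside 23.0% of 5779 genes, and 0 in epithelial cells, beside 19.2%. Of these 7 only Id3 was not past it, at 102 against 72.5 CPM, a fold of 1.41 (0.816 to 2.56). The median fold was 6.20 for the factors, with a cluster at 0 UMIs taken as 3 UMIs, and 1.07 for all genes. Runx3 and Tbx21 had 0 UMIs in 248294 epithelial UMIs, so that against a floor of 3 UMIs the IELs were at least 19.6-fold and 4.08-fold higher. The exact 95% intervals, which also cover the counting error in IELs, had lower limits of 15.7 and 3.09. Ikzf2 was 22.5-fold higher (7.53 to 110), Id2 16.2-fold (7.75 to 40.8), Bcl11b 6.20-fold (2.73 to 17.4) and Gata3 2.47-fold (0.835 to 9.91). Without the cells in both tables the same 6 factors were past 2-fold, beside 26.5% of 5182 genes, and Id3 stood at 1.46-fold (0.828 to 2.68). Over all listed cells, 14 of 24 other factors were past 2-fold in IELs and 3 in epithelial cells, and 12 of 12 targets in IELs. These counts stand beside 23.0% of all genes in IELs and 19.2% in epithelial cells.

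Within the epithelial subclusters the factors were sparse, with 12 UMIs of all 9 factors over the stem cells, 18 over the secretory precursors and 27 over the absorptive ones. Tbx21 and Zeb2 had 0 UMIs in all 3 subclusters, which allows up to 43.4, 23.3 and 19.8 CPM. Id3 was the most frequent, with 7 UMIs in 3 of 32 stem cells, 6 UMIs in 3 of 32 secretory precursors and 14 UMIs in 9 of 42 absorptive precursors. Its levels of 101 (40.8 to 209), 46.6 (17.1 to 102) and 92.2 CPM (50.4 to 155) had overlapping intervals. Id2 followed with 2, 6 and 1 UMIs and Bcl11b with 1, 1 and 7. The 5 T cell genes had 7 UMIs in 4 of 42 absorptive precursors and 0 in the other 2 subclusters, and 3 Bcl11b UMIs lay in cells listed in both tables; the part of these cells in the level of Bcl11b was not tested. Id3 was the only factor with at least 20 UMIs for the comparison of stem cells with the other subclusters, and its fold was 1.42 (0.508 to 3.50), not past 2-fold in either direction, beside 13.1% of 3013 genes past it in stem cells and 16.1% in the others. Of its 7 UMIs in stem cells, 5 lay in 1 cell, the deepest of all with 23205 UMIs and listed as an iIEL in the first table. As the mean of each cell's own level, the fold was 0.376.

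The genes whose distribution over 6 groups was most like that of a factor were sought by the smallest total variation distance, where 0 is the same distribution and 1 no overlap, among 2852 or 2853 genes with at least 50 UMIs. The 6 groups were nIELs and iIELs outside the subclusters, B cells and the 3 epithelial subclusters. Nearest to Ikzf2 were the natural killer receptor genes Klra6 and Klra7, at 0.0779 and 0.0999, and the gamma T cell receptor constant gene Tcrg-C4, at 0.0906. Id2 was nearest to Ccl5 (0.0545), Lat (0.0808) and Cd226 (0.0826), and Tbx21 to Rgs1 (0.0109), Cd3e (0.0142) and Cd3g (0.0152). Id3, with levels in nIELs and in epithelium, was nearest to Usp8 (0.0849), Ppm1b (0.121) and Elk4 (0.126). Runx3 was nearest to Abi3 (0.0159) and Serpina3g (0.0192), and the next row carries no readable symbol. Bcl11b was nearest to Vps8 (0.0796), Saraf (0.0876) and AI504432 (0.0982), Zeb2 to Il7r (0.0571), Sp100 (0.0679) and Cyth4 (0.0837), and Gata3 to Lgals9 (0.0996), Dnajc15 (0.111) and H2-T22 (0.116). The median distance of all genes was between 0.314 for Id3 and 0.592 for Ikzf2.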

How the data were processed

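The authors deposited raw UMI counts of the sorted colon crypt cells, 1117 barcodes by 19294 gene symbols, and these counts entered without further normalization. Among tools the submitters' processing notes list Picard 1.137 and STAR 2.5.0, with hg19 and mm10 as builds. The gene annotation, the joining of UMIs and the filters on cells are not given in the sources used here.

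Cells were joined by barcode to the authors' 2 tables of cluster assignments, and likely doublets were kept. Where the tables disagree, the first gave the cluster. Levels were UMIs summed over the cells of a group, per 1000000 UMIs of that group (CPM), with exact Poisson 95% intervals. Folds had exact binomial and shares exact Clopper-Pearson 95% intervals. All intervals cover counting error only and treat UMIs as independent. A gene was past 2-fold when it differed at least 2 times with at least 20 UMIs in both groups together, and a group at 0 was taken as 3 counts. The total of 1023641 UMIs, of which assigned cells held between 504 and 23205 each, limits the precision of every level.

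The genes named are the factors, the 3 largest folds each way of a list of other lymphocyte factors, up to 4 targets and the 3 genes nearest to each factor. All members and lists were chosen with earlier results of these data known. Alternatives were another level, other totals, each barcode set alone, other minimum counts, thinning to 700 UMIs in 100 draws, joined barcodes, and leaving out doubly listed cells, likely doublets or, for each factor, its highest cell. Leaving out B and epithelial cells with Cd3 UMIs was added after seeing the data. Folds were tested on simulated data. Positions are from GENCODE M21 on GRCm38. Python 3.11.15, numpy 2.4.6, scipy 1.17.1 and pandas 2.3.3 were used. Human cells were not used here.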

Additional observations from a re-analysis of the deposited data

Results flagged for a closer look

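The 601 barcodes without a cluster, which entered no comparison, held 171737 UMIs at a median of 212 per barcode, and 36.8% of these UMIs were mitochondrial. UMIs of 6 factors there were above the floor of 3 counts. Id2 had 40 UMIs in 26 barcodes, Ikzf2 had 23 UMIs in 20, Runx3 had 19 UMIs in 19, Bcl11b had 18 UMIs in 15, Id3 had 5 UMIs in 5 and Gata3 had 4 UMIs in 2. In UMIs per 1000000, these came to 233 for Id2 (166 to 317), 134 for Ikzf2 (84.9 to 201), 111 for Runx3 (66.6 to 173), 105 for Bcl11b (62.1 to 166), 29.1 for Id3 (9.45 to 67.9) and 23.3 for Gata3 (6.35 to 59.6). A UMI of any of the 9 factors was present in 76 of the 601 barcodes.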

How the results depend on the processing

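No paired analysis was possible because the labels give both pools 1 condition, no barcode set could be assigned to a pool and no result comes from a test, and for the same reason no replicate could be left out. In nIELs against iIELs, the number of factors past 2-fold in iIELs was 0 and became 1 for the mean of each cell's own level, for barcode set X1 alone, without the cells listed in both tables, without likely doublets and for cells thinned to 700 UMIs, each time Id2, and 1 with a minimum of 10 UMIs, then Zeb2. In IELs against B cells, the number past 2-fold in B cells went from 0 to 1 (Zeb2) without the B and epithelial cells with Cd3 UMIs, an alternative chosen after seeing the data. In stem cells against the other subclusters, the number higher in the others went from 0 to 1 (Id3) for the mean of each cell's own level, where the fold was 0.376, and for set X1 alone, where it was 0.477. In the order given, the shares of all genes past 2-fold in iIELs were 10.4%, 11.1%, 6.20%, 12.1%, 3.63% and 17.1%. The share in B cells was 9.62%, and the shares in the other subclusters were 25.8% and 24.8%. Beside these shares, single calls among at most 8 tested factors are not read as results about the factors. A lower minimum admits Zeb2 by construction, and the cause of the other changes was not tested. The other 69 counts stayed within 1.5 times, and 186 folds of single factors stayed within the main interval while 9 left it. Joining related barcodes leaves all summed UMIs unchanged, and another minimum count leaves each fold unchanged. These settings therefore add to the stable results by construction. Set X2 alone, with 62 assigned cells, gave no factor with enough UMIs in any of the 4 comparisons, and for stem cells neither did thinning, a minimum of 50 UMIs or leaving out the cells in both tables. Shares of cells with a UMI fall with depth and with a minimum of 2 UMIs, and 55 left their interval while 71 did not.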
